A study of Mus musculus with 8 samples.

Results

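The B cell receptor complex and the first steps of its signalling were followed here through 9 genes: Cd79a, Cd79b, Cd22, Cd72, Blk, Lyn, Syk, Btk and Blnk. They were taken by gene name from the annotation of the arrays, where all 9 are measured, by 20 of 44170 features in all. For each gene the feature with the highest mean over all arrays stands for the gene, so that the 9 genes are set beside 24171 named genes chosen in the same way. The study profiled total spleen RNA on 1-colour NimbleGen arrays, from 4 mice lacking the microRNA miR-155 (Mim1-5, Mim1-6, Mim2-2 and Mim2-3) and 4 wildtype mice (WT-1 to WT-4). Each genotype has 2 animals labelled male and 2 labelled female, and both Mim2 mice are the labelled males of the knockout. The labels give no age, no strain and no description of the deleted allele, and no treatment is named for either genotype. Each array was taken as 1 animal, since the series counts separate spleens. Values are log2 of the RMA intensity, on which a difference of 1 is a doubling.

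The B cell receptor is a membrane immunoglobulin held by a pair of signalling chains, CD79A and CD79B, which carry tyrosine motifs in their tails. Antigen binding lets the Src family kinases LYN and BLK phosphorylate these motifs, SYK docks on them, and the adaptor BLNK then brings BTK to the phospholipase that raises calcium. CD22 and CD72 are surface co-receptors that recruit phosphatases and damp this signal. In the spleen the CD79 chains, CD22, CD72, BLK and BLNK belong mainly to B cells, while LYN, SYK and BTK are also used by myeloid cells. miR-155 is a microRNA that lymphocytes and macrophages raise on activation.

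The mature strand of the deleted microRNA and the start-proximal DNA of some of the 9 genes are given as background. Their relation to the genotype differences was not tested. The microRNA sequence is from RefSeq, build GRCm38.p6, at chr16:84714143-84714165 on the plus strand, with its seed, bases 2 to 8, in capitals.
mmu-miR-155-5p: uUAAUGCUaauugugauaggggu
Promoter windows of RefSeq, 250 bases before the gene's start in GRCm38.p6, were matched for 6 of the 9 genes, in 7 windows because Syk has 2 of them. Cd79b, Blk and Lyn were not matched. These windows were searched on both strands for 3 motifs of factors known from B cells: the octamer ATTTGCAT, the ETS motif AGGAAGT and the EBF motif CCCNNGGGA. The octamer was found in Blnk, the ETS motif in Cd79a, Cd72 and Blnk, and the EBF motif in Cd22, where its match on either strand overlaps the other. Over all 32851 windows, 1.6% hold the octamer, 7.69% the ETS motif and 5.6% the EBF motif. Matches are in capitals in the lines that follow, 5′ to 3′ on the strand of the gene, with Cd79a at chr7:24897247-24897496 (plus), Blnk at chr19:40994222-40994471 (minus), Cd72 at chr4:43454641-43454700 (minus) and Cd22 at chr7:30879043-30879102 (minus). The last 2 are cut to 60 bases around the match. No match was found in the windows of Btk and Syk.
Cd79a: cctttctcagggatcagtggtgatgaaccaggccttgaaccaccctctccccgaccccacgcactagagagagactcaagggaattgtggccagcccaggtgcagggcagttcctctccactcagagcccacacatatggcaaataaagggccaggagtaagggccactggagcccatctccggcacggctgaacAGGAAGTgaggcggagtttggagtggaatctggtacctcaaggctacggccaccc
Blnk: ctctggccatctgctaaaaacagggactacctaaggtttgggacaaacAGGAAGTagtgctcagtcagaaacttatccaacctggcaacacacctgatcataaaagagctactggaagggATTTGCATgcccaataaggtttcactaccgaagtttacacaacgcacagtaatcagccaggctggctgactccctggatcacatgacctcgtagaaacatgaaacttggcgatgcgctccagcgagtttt
Cd72: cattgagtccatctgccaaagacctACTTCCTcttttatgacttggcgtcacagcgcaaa
Cd22: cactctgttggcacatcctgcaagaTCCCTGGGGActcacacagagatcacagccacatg

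Some arrays stand apart from the rest, which bears on every value below. Over all features the Mim2-2 and Mim2-3 arrays correlated at 0.811 to 0.877 with the other 6, and those 6 at 0.911 to 0.943 among themselves. With each other Mim2-2 and Mim2-3 correlated at 0.874, within the range of their values with the other 6. Markers of mammary epithelium, 14 of 14 measured and 11 above the random probes on all arrays, averaged 7.85 and 9.26 on these arrays, 10.69 and 10.42 on Mim1-5 and Mim1-6, and 11.19 to 11.46 on the wild-type arrays. Spleen has no such epithelium. In the fit over 8 arrays 13 of the 14 markers were lower in the knockout, and Krt19 was higher by 2.16. Their median difference was -2.0, and -0.28 without both Mim2 arrays. With those arrays left out no labelled male of the knockout remains, while labelled sex stays in the fit. Here and below, differences without both Mim2 arrays are therefore those of Mim1-5 and Mim1-6 against WT-1 and WT-3 alone. The Y-linked gene Ddx3y averaged 7.76 on arrays labelled male and 7.82 on those labelled female. Xist, a transcript of female cells, averaged 9.95 on arrays labelled male and 10.13 on those labelled female, and its lowest array read 8.35. The labelled sex was thus not borne out by these genes, and "male" and "female" below are the labels. Random probes read 4.94 to 5.24, and each of the 20 features of the 9 genes lay above them on all 8 arrays.

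All 9 genes were higher in the knockout in the fit, by 0.50 to 1.96 on the log2 scale with a median of 1.24, where 53.9% of all named genes were higher and their median was 0.06. After adjustment over all 44170 features none of the 9 passed the threshold of 0.05 (limma, smallest adjusted p = 0.262), and the share called among all features was 0%. In bulk tissue a change in the number of cells of a type and a change in RNA per cell cannot be told apart. This holds for every difference given here. The p-values set each difference against the spread between these samples. At an unadjusted p under 0.05, 8 of the 9 were higher in the knockout, against 7.7% of named genes. In 6 of the 9 (Cd79b, Cd72, Blk, Lyn, Syk and Blnk) every knockout array read above every wild-type array, against 5.27% of named genes. Counted over all 20 features of these genes it was 9, against 4.7% of all features. With a variance model that allows a trend and is robust to outlying features, Blk and Syk passed (limma, adjusted p = 0.0444 and 0.0405), as did 0.0496% of named genes and 0.0362% of features. The unadjusted count was 3 without both Mim2 arrays, against 2.76% of named genes. It was 5 without Mim2-2 alone or without WT-2 alone, for which no share of named genes is given. Both Mim1 arrays alone read above every wild-type array in those 6 genes, as in 9.25% of named genes.

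**Figure D1:**
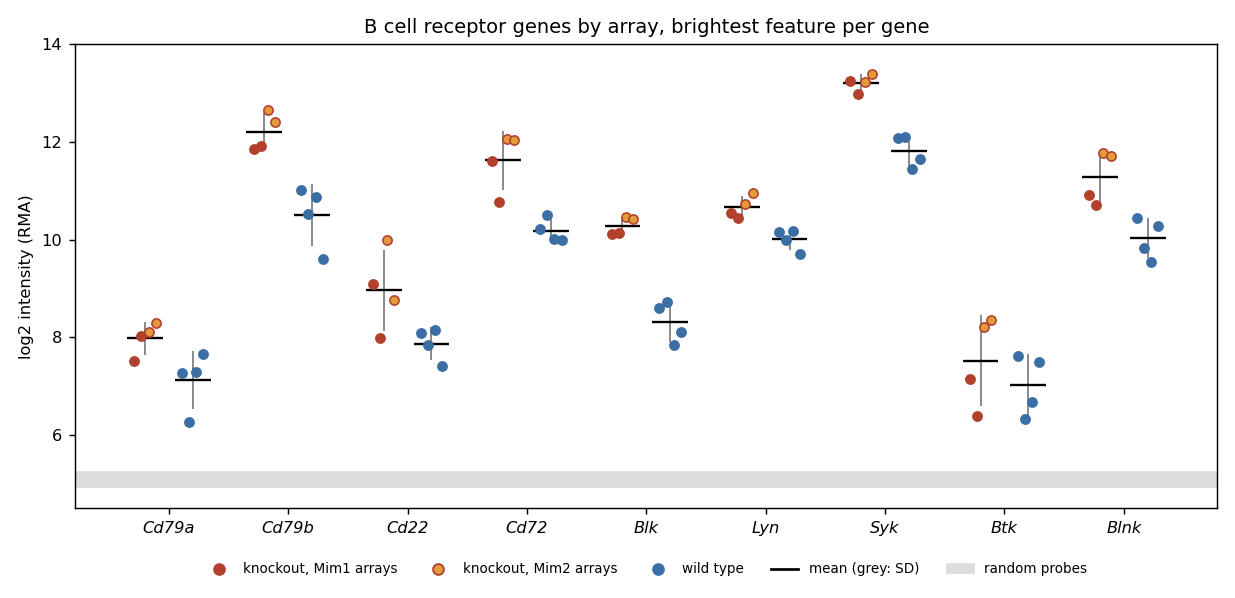
Log2 RMA intensity of the brightest feature of each of the 9 genes (y axis) on the 4 knockout arrays (left of each pair, Mim2 arrays in orange) and the 4 wild-type arrays (right, blue), with the mean as a black line, the SD as a grey line and the range of the random probes as a grey band. In 6 genes all knockout points lie above all wild-type points, while Cd79a, Cd22 and Btk overlap.

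Of the receptor's signalling chains, Cd79b separated the genotypes and Cd79a did not. Cd79b is on chromosome 11 from 106172654 to 106175843 in build MM9, the build of the array files. It read 11.85, 11.91, 12.65 and 12.41 in Mim1-5, Mim1-6, Mim2-2 and Mim2-3, against 11.01, 10.52, 10.88 and 9.61 in WT-1, WT-2, WT-3 and WT-4. The lowest knockout array was 0.84 above the highest wild-type array, and WT-4 was low within its group. The difference was 1.70 ± 0.39 (SE), a 3.25-fold ratio with a 95% interval of 1.77 to 5.97 (limma, adjusted p = 0.262). Without both Mim2 arrays, which leaves Mim1-5 and Mim1-6 against WT-1 and WT-3, it was 0.93 ± 0.42. A further term for the mammary mean gave 0.66 ± 0.54. Cd79a, on chromosome 7 from 25682532 to 25686877, read 7.51, 8.02, 8.11 and 8.29 in the knockout arrays in the same order, against 7.28, 6.27, 7.30 and 7.66 in the wild-type arrays. Here the groups overlap, since Mim1-5 lies below WT-4. The difference was 0.86 ± 0.37, or 1.81-fold with an interval of 1.01 to 3.25 (limma, adjusted p = 0.355), and it was 0.50 without WT-2 and 0.48 without both Mim2 arrays. Both chains have a single feature, so the smaller value of Cd79a cannot be set against another probe set of that gene.

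Of the inhibitory co-receptors, Cd72 separated the genotypes by its brightest feature and Cd22 did not. In both genes some features separated the genotypes and others overlapped. Cd72, which damps receptor signals through the phosphatase SHP-1, is on chromosome 4 from 43460595 to 43467498. It read 11.61, 10.77, 12.06 and 12.04 in Mim1-5, Mim1-6, Mim2-2 and Mim2-3, against 10.21, 10.50, 10.02 and 9.99 in WT-1 to WT-4. Mim1-6 lay nearest to the wild type, 0.26 above its highest array. The difference was 1.44 ± 0.32, or 2.71-fold with an interval of 1.64 to 4.5 (limma, adjusted p = 0.262), and the other 3 features of the gene differed by 0.80 to 1.5 in the same direction. Among these the genotypes overlapped in AK151094 and S40777, and in BC003824 all knockout arrays lay above all wild-type arrays.

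Cd22, a lectin that binds sialic acid on the same or other cells, is on chromosome 7 and its brightest feature spans 31652480 to 31664047. That feature read 9.10, 7.99, 9.99 and 8.77 in the knockout arrays, against 8.09, 7.84, 8.14 and 7.42 in the wild-type arrays. Mim1-6 lay within the wild-type range and Mim2-2 was the highest, a spread of 0.83 (SD, n = 4) among knockout arrays and 0.33 among wild-type arrays. The difference was 1.09 ± 0.43 (limma, adjusted p = 0.333), and it was 0.71 without Mim2-2 and 0.43 without both Mim2 arrays. The 6 features of Cd22 differed by 0.37 to 1.47. In those with the 2nd and 3rd highest mean all knockout arrays lay above all wild-type arrays, by contrast with the brightest. In the dimmer features the genotypes overlapped. With the mean of the mammary markers as a further term, the brightest feature differed by -0.10 ± 0.60.

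Among the Src family kinases, Blk had the largest difference of the 9 genes and Lyn a smaller one. Blk, a kinase largely confined to the B lineage within blood cells, lies on chromosome 14 from 63991672 to 64035874. It read 10.11, 10.14, 10.47 and 10.41 in Mim1-5, Mim1-6, Mim2-2 and Mim2-3, against 8.60, 8.73, 7.84 and 8.11 in WT-1 to WT-4. The knockout arrays were close together (SD 0.18, n = 4, against 0.42 in the wild type), and their lowest was 1.38 above the highest wild-type array. The difference was 1.96 ± 0.30, or 3.90-fold with an interval of 2.45 to 6.21 (limma, adjusted p = 0.262). By its p the gene stood at rank 10 of the 24171 named genes. Over the 19 other settings tried, several of which cannot move it, its difference ran from 1.82 to 2.12.

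Lyn, a kinase that both starts the receptor signal and feeds its inhibitors, is on chromosome 4, its brightest feature from 3605297 to 3718239. It read 10.55, 10.44, 10.72 and 10.96 in the knockout arrays, against 10.16, 9.99, 10.18 and 9.71 in the wild-type arrays. The groups did not overlap, with a gap of 0.26. The difference was 0.66 ± 0.28, or 1.58-fold with an interval of 1.02 to 2.45 (limma, adjusted p = 0.348), and it was 0.33 without both Mim2 arrays. The other features of Lyn differed by 0.54 and 1.15, and in both of them the genotypes overlapped. The dimmest of them, NM_001111096, read 7.36, 7.05, 9.06 and 8.37 in Mim1-5, Mim1-6, Mim2-2 and Mim2-3, against 7.75, 6.53, 7.02 and 5.95 in WT-1 to WT-4, and so was above the wild-type range on the Mim2 arrays alone. Within labelled males it differed by 2.48 (limma, adjusted p = 0.0329) and within labelled females by -0.17, and the difference between the sexes did not pass (2.65, adjusted p = 0.187).

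Syk, the kinase that docks on the phosphorylated tails, is on chromosome 13 from 52678805 to 52744161. It read 13.24, 12.98, 13.22 and 13.39 in Mim1-5, Mim1-6, Mim2-2 and Mim2-3, against 12.07, 12.09, 11.44 and 11.65 in WT-1 to WT-4. The knockout arrays had an SD of 0.17 and the wild-type arrays one of 0.32 (n = 4 each), and the gap between the groups was 0.89. The difference was 1.39 ± 0.28, or 2.62-fold with an interval of 1.68 to 4.10 (limma, adjusted p = 0.262). The other Syk feature, AK049207, with a mean of 6.86 in either genotype, differed by 0.00 ± 0.47, so the features of this gene disagree, and their mean differed by 0.70.

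Btk, the Tec family kinase whose loss blocks B cell development in humans, is X-linked and spans 131076874 to 131117603. It read 7.14, 6.38, 8.21 and 8.36 in the knockout arrays, against 7.61, 6.32, 6.67 and 7.49 in the wild-type arrays. Only the Mim2 arrays were above the wild-type range, and Mim1-6 was next to the lowest array of all. The difference was 0.50 ± 0.47, with an interval from -0.57 to 1.57 (limma, adjusted p = 0.657), and without both Mim2 arrays it was -0.38 ± 0.56. Leaving out 1 array gave 0.09 without WT-2, 0.30 without Mim2-3, 0.83 without Mim1-6 and 0.87 without WT-1.

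Blnk, the adaptor that links SYK to BTK and phospholipase C gamma 2, is on chromosome 19 from 41003416 to 41068651. It read 10.91, 10.70, 11.76 and 11.71 in Mim1-5, Mim1-6, Mim2-2 and Mim2-3, against 10.45, 9.83, 9.55 and 10.28 in WT-1 to WT-4. All knockout arrays were above the wild-type arrays, with Mim1-6 the nearest, 0.25 above WT-1. The difference was 1.24 ± 0.33, or 2.36-fold with an interval of 1.4 to 3.98 (limma, adjusted p = 0.266), and it was 0.80 without both Mim2 arrays.

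**Figure D2:**
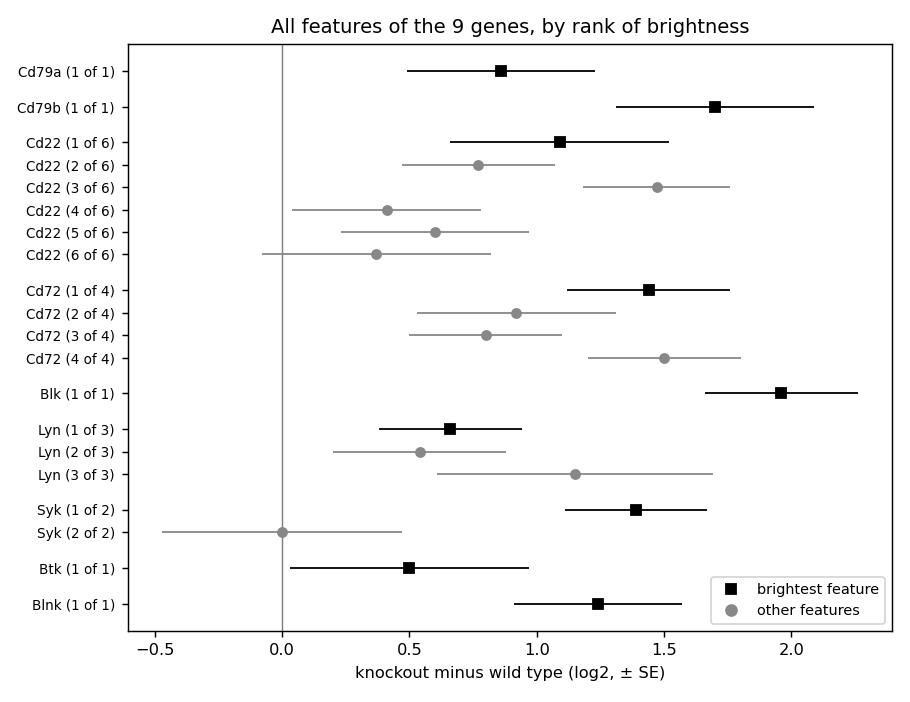
Knockout minus wild type difference (log2, x axis, with the SE) of all 20 features of the 9 genes, listed from the brightest feature of each gene (black square) down to its dimmest (grey circle). All estimates lie between 0.00 and 1.96, and the dimmer Syk feature at 0.00 is the one farthest from its gene's brightest feature.

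The Mim2 arrays carried the highest values of the 9 genes. Mim2-2 was the highest array for 5 genes and Mim2-3 for the other 4, and for every gene both lay above the wild-type maximum, as Mim1-5 and Mim1-6 did for 7 genes each. The mean over the 9 genes was 10.80 and 10.70 on Mim2-2 and Mim2-3, 10.22 and 9.93 on Mim1-5 and Mim1-6, and 9.5, 9.12, 9.11 and 9.10 on WT-1, WT-2, WT-3 and WT-4. In labelled males all 9 genes were higher in the knockout with a median of 1.68, and in labelled females 8 of 9 were, with a median of 0.80, the exception being Btk at -0.38. The differences in labelled females compare the same arrays as those without both Mim2 arrays. They are the same values and not further evidence. Cd79b and Blk passed within labelled males, by 2.47 and 2.02 (limma, adjusted p = 0.0286 and 0.0411), a comparison that called 4.26% of named genes in either direction and 1.05% as higher. Over all features these shares were 4.24% and 0.899%. None of the 9 passed within labelled females, where limma called 0% of features and 3 of the 9 (Blk, Syk and Cd72) were higher at an unadjusted p under 0.05, against 2.3% of named genes. The difference between the sexes was 0.07 to 1.76 over the 9 genes and none passed (limma, smallest adjusted p = 0.317, for Cd79b at 1.53 ± 0.58), 1 having an unadjusted p under 0.05 against 13.6% of named genes. Because the knockout males are the Mim2 mice, labelled sex and the departure of those arrays from the rest cannot be told apart. Blk and Syk were about as far apart within either labelled sex, by 2.02 and 1.43 in labelled males and by 1.91 and 1.36 in labelled females.

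**Figure D3:**
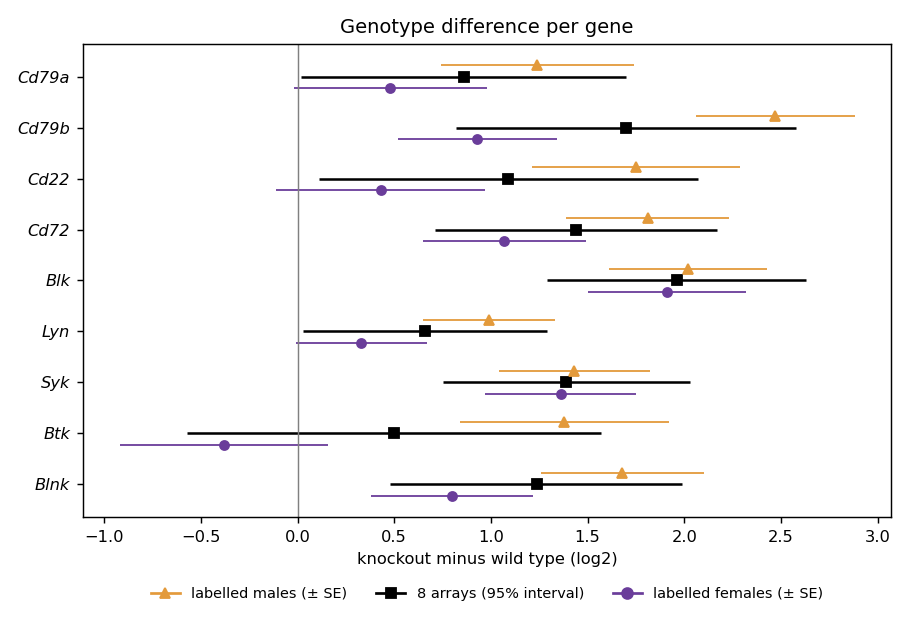
Knockout minus wild type difference (log2, x axis) for each of the 9 genes, over 8 arrays with the 95% interval (black square) and within labelled males (orange triangle) and labelled females (purple circle), each with its SE. The values for Blk and Syk lie close together in males and females, while those of Btk lie on either side of 0.

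Further genes of the receptor pathway were read from a list of 37 measured genes. Of these, 33 were higher and 4 lower in the knockout, with a median of 0.78 on the log2 scale against 0.06 for all named genes. None passed over all features. At an unadjusted p under 0.05, 18 were higher, against 7.7% of named genes, and 2 were lower, against 1600 of 24171. In 18 every knockout array lay above every wild-type array, against 5.27% of named genes. Without both Mim2 arrays the number higher at an unadjusted p under 0.05 was 5, against 2.76% of named genes. Downstream of the kinases, 7 of 7 genes were higher, with a median of 1.05, among them the paracaspase gene Malt1 by 2.07 ± 0.34 and Prkcb, of the kinase that starts NF-kB signalling, by 1.44 ± 0.30. Of the immunoglobulin and co-receptor genes, 6 of 8 were higher. Cr2, a complement receptor of mature B cells, averaged 10.03 ± 0.50 on knockout arrays and 7.37 ± 0.60 on wild-type arrays (SD, n = 4 each). Lipid signalling genes included Pik3cd and the adaptor gene Pik3ap1, higher by 1.55 ± 0.36 and 1.26 ± 0.31. These 5 genes share a limma adjusted p of 0.262, and Cr2 passed with the trend and robust variance (adjusted p = 0.0285). Of the inhibitory genes 10 of 11 were higher in the fit, with a median of 0.59. At an unadjusted p under 0.05 it was 4 of 11, against 7.7% of named genes. Without both Mim2 arrays 7 of 11 were higher and 0 at that p, against 2.76% of named genes.

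The 4 pathway genes lower in the knockout were Pik3r1, Cd81, Cbl and Ighm. Pik3r1, the regulatory subunit of PI3 kinase, read 8.24 ± 0.75 on knockout arrays and 9.88 ± 1.15 on wild-type arrays (SD, n = 4 each), a difference of -1.64 ± 0.40 (limma, adjusted p = 0.262). Cd81, a tetraspanin found on many cell types, differed by -0.99, and by -0.31 without both Mim2 arrays. Cbl, a ubiquitin ligase, differed by -0.69, where Mim2-3 read 5.70, and by -0.14 without Mim2-3. Ighm, the heavy chain of IgM, differed by -0.22, and by -0.09 without Mim1-5. Ighm averaged 14.64 ± 0.32 on knockout arrays and 14.86 ± 0.12 on wild-type arrays, the light chain gene Igk averaged 15.42 ± 0.25 and 15.14 ± 0.23, and for both the genotypes overlapped. Immunoglobulin features share sequence with related gene segments and also reflect the secreted protein of plasma cells, so their values are uncertain. Plasma cell markers averaged 7.92 to 8.28 on knockout arrays and 7.90 to 8.53 on wild-type arrays.

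Relatives of the 9 genes that work in other cells were read in the same way. Of 20 measured, 18 were higher, with a median of 0.81, none passed over all features, and at an unadjusted p under 0.05, 8 were higher, against 7.7% of named genes, and 1 was lower. Without both Mim2 arrays 1 of the 20 was higher at that p, against 2.76% of named genes, a share near the background. Those with the smallest p included Siglece, a sialic acid lectin of myeloid cells, higher by 1.39 ± 0.28, Siglech of plasmacytoid dendritic cells by 1.31 ± 0.37, the T cell receptor chain genes Cd3g and Cd247 by 1.04 ± 0.33 and 0.99 ± 0.32, and Zap70, the T cell counterpart of Syk, by 0.93 ± 0.29 (limma, adjusted p = 0.262 to 0.289). Without both Mim2 arrays Siglech differed by 0.63, Cd247 by 0.51 and Zap70 by 0.58. Among the broadly expressed kinases, Src differed by -1.11, but it was low on the Mim2 arrays alone, at 10.33 and 11.31, and without them it differed by 0.05, and by -0.69 without Mim2-2. Yes1 differed by -0.38, and by -0.11 without both Mim2 arrays.

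**Figure D4:**
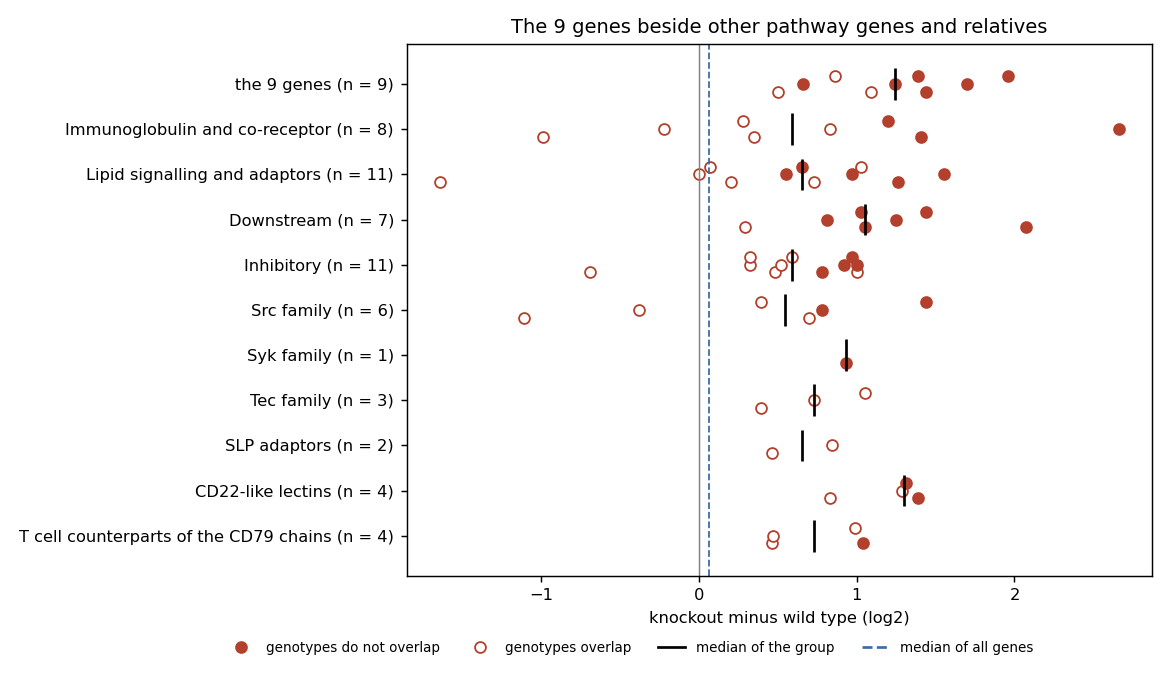
Knockout minus wild type difference (log2, x axis) of the 9 genes and of other pathway genes and relatives, each point 1 gene, filled where the arrays of the genotypes do not overlap; black lines are group medians and the dashed line is the median of all named genes at 0.06. The 9 genes have a median of 1.24 and the downstream genes one of 1.05, and the genes below 0 are Pik3r1, Cd81, Cbl, Ighm, Src and Yes1.

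Markers of other cells also differed between these arrays. The 10 measured markers of B cells that are not among the 9, all above the random probes on all arrays, averaged 9.82 to 10.83 on the knockout arrays and 8.68 to 9.22 on the wild-type arrays. Within them Pou2af1, Ebf1 and Fcrla differed by 1.48, 1.78 and 1.75, and without both Mim2 arrays Ebf1 differed by 1.04. Pax5, a master regulator of B cell identity, differed by -0.20, a sign that rests on WT-3, which read 10.55 where the other wild-type arrays read 7.42 to 7.88, and the difference was 0.55 without WT-3 and 0.09 without Mim1-6. T cell markers (10 of 10 above the random probes on all arrays) averaged 8.33 to 9.14 and 7.76 to 8.24, and red pulp macrophage markers (9 of 9) 9.04 to 9.93 and 8.56 to 9.02, in knockout and wild type. Neutrophil and monocyte markers (9 of 11) overlapped, at 7.92 to 8.97 on knockout arrays and 8.55 to 8.82 on wild-type arrays. That mean joins genes of opposite direction, 6 higher and 5 lower in the fit, from Camp at -1.67 to Ly6c2 at 0.87. Erythroid markers (8 of 8) averaged 10.33 and 10.31 on Mim1-5 and Mim1-6, 11.09 and 11.47 on Mim2-2 and Mim2-3, and 11.19 to 11.51 on wild-type arrays, and 7 of the 8 were lower in the knockout in the fit. Pancreas markers (5 of 12) averaged 6.72 to 7.34 and 5.68 to 5.93, and mammary markers (11 of 14) 7.85 to 10.69 and 11.19 to 11.46. The part of any of these cells in the differences of the 9 genes was not tested. With the mammary mean as a further term 7 of the 9 genes were higher, and their median was 0.66. In that fit 2 had an unadjusted p under 0.05, Blk at 1.88 ± 0.53 and Syk at 1.45 ± 0.50. No share of named genes is given beside this count, so it has no background in the fit with the mammary mean. That mean itself separates the genotypes, so the term also takes up genotype difference.

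**Figure D5:**
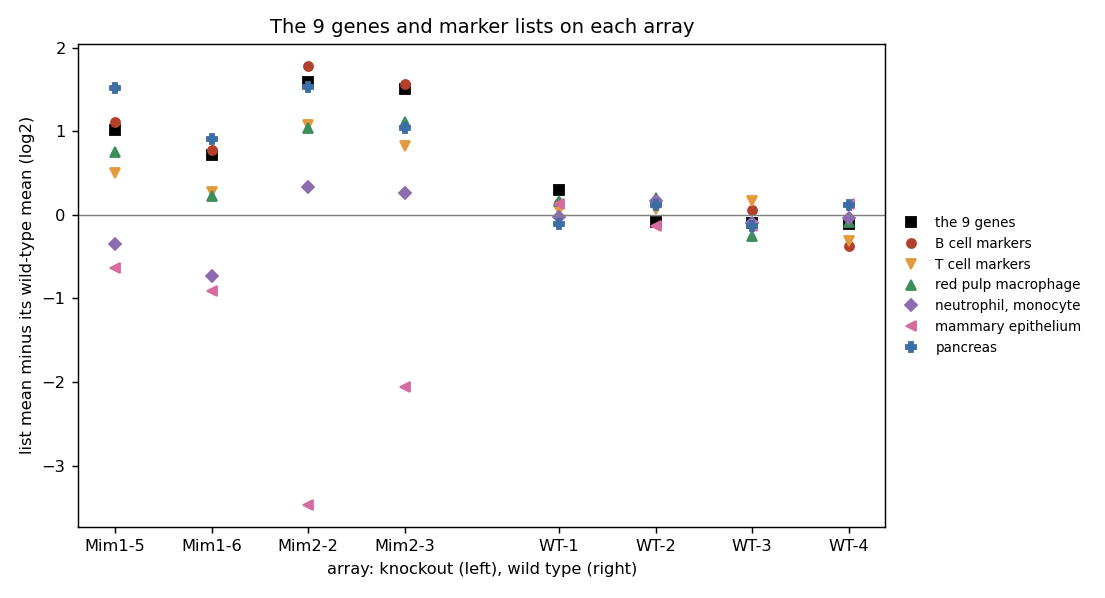
Mean log2 intensity of the 9 genes and of 6 marker lists on each array, less the wild-type mean of the same list (y axis), with knockout arrays left and wild-type arrays right. The 9 genes stand at 0.72 to 1.59 on the knockout arrays beside 0.77 to 1.78 for other B cell markers, and the mammary list at -3.47 to -0.64.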

How the data were processed

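Total RNA of 8 spleens was labelled with Cy3 and hybridised to NimbleGen arrays, per the labels. Each array's deposited table gives a linear intensity for every feature, tied to RMA by the submitters' processing notes, which name no version. Each feature of the 9 genes rests on 3 probes, with positions in build MM9 per the file headers. A deposited table of the series holds 21856 features with the same intensity within a relative tolerance of 1e-06 and was used as an alternative. Values were taken to log2 with no further normalization. Gene names are those of the files, updated through Entrez numbers (89.2% matched, RefSeq, GRCm38.p6).

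Genotypes were compared by linear models (limma 3.58.1, run under R 4.3.3) with moderated variance (lmFit, eBayes), two-sided tests, labelled sex as an additive term and Benjamini-Hochberg adjustment over all 44170 features. A fit with a genotype by sex term gave the values within each labelled sex. The fit without both Mim2 arrays kept labelled sex as a term. Its differences are therefore those of Mim1-5 and Mim1-6 against WT-1 and WT-3, as within labelled females. The fit was also run on simulated data with independent noise and the same effect on all knockout arrays. That setting has no arrays that stand apart, so it says nothing on the Mim2 arrays here. The arrays' own entry of 5000 random probes gave the background level on each array. From each list the text names the 6 genes with the smallest p and groups of 5 or fewer, except 2 genes that are not reported here, and other genes named were chosen after their values were seen. The 9 genes, lists, motifs and alternatives were chosen with earlier results of these data known. The number of arrays limits the precision.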

Additional observations from a re-analysis of the deposited data

How the results depend on the processing

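Of 171 values of the 9 genes under 19 alternatives, 168 kept the direction of the reported difference. Those that turned were Btk at -0.38 without both Mim2 arrays, and Btk at -0.23 and Cd22 at -0.10 with the mammary mean as a further term. Several alternatives leave a difference as it was by construction. These are the other variance model, a filter on features above the random probes, no sex term and the deposited table of the series. For genes with a single feature, taking the mean of all features or the feature with the smallest p changes nothing either. The count of 168 is therefore no measure of how stable the differences are. Of the other genes named, in values chosen after seeing the data, Src was 0.05 without both Mim2 arrays, and Pax5 ran from -0.52 to 0.55 when 1 array was left out. The cause was not tested. With the trend and robust variance 2 of the 9 genes passed (Blk and Syk) in place of 0, and 1 gene of the pathway list (Cr2) in place of 0; in no other alternative did any of the 9 pass. The number of the 9 higher at an unadjusted p under 0.05, reported as 8, was 2 with the mammary term, 3 without both Mim2 arrays and 5 to 7 when 1 array was left out. The share of named genes was 7.7% in the reported fit and 2.76% without both Mim2 arrays, and is not given for the other settings. The median difference, reported as 1.24, was 0.66 with the mammary term, 0.80 without both Mim2 arrays and 1.06 to 1.51 when 1 array was left out. Without both Mim2 arrays 5 pathway genes and 1 relative were higher at an unadjusted p under 0.05, in place of 18 and 8. The same shares of named genes stand beside these counts, 2.76% and 7.7%. No paired analysis was possible because the animals carry no number or label that pairs a knockout with a wild-type mouse.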

Other observations

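Among 15818 named genes above the random probes on all 8 arrays, those whose profile was most like the mean of the 9 genes over the 8 arrays were Ppcs, an enzyme of coenzyme A synthesis, Tfam, a factor that maintains mitochondrial DNA, Swap70, a signalling protein of B cells, Gimap5, a survival protein of lymphocytes, the leukocyte tetraspanin gene Cd53, and Gm2397, a predicted gene. Their Pearson r was 0.990 to 0.995, given as a description, since the genotypes form separate clusters and all points share arrays and normalization. Cd53 averaged 11.44 on knockout arrays and 9.90 on wild-type arrays, and Swap70 11.86 and 10.90. The other 4 differed by 0.81 to 1.15 on the log2 scale. None passed over all features (limma, adjusted p = 0.262 to 0.295). Within the 9 genes, Cd72 and Blnk followed the mean of the other 8 most closely over the arrays (r = 0.948 each), and Btk and Cd79a least (0.579 and 0.676).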
